A study of Mus musculus with 26 samples.

Results

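The IgG2 clonotypes of spleen and lymph node were compared in wild-type mice. A clonotype was the combination of a V gene, a J gene and the nucleotides of the junction, and it was kept when at least 1 of its heavy-chain sequences carried the constant-region call IGHG2. Counted within each biological replicate, spleen and lymph node held 29632 IgG2 clonotypes of 1286620 clonotypes of all isotypes, and the whole series held 1674869. They comprised 236658 copies, the count deposited for a sequence, in 54385 distinct sequences that used 129 V genes. Spleen contributed 24330 of the clonotypes and lymph node 5302.

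The series sequenced immunoglobulin heavy chains from bulk RNA of skin, spleen and lymph node and concerns germinal centre reactions in skin. All libraries came from mice of the WT genotype that had undergone association with Staphylococcus epidermidis, which lives on healthy skin, so neither tissue had an unassociated group. Spleen and lymph node had 4 biological replicates each, with 2 technical libraries per replicate that were added together. Titles were used to assign the tissue, since the labels' tissue entry names ear skin for every library. The labels do not give the age of the mice, which lymph node was taken, or whether spleen and lymph node of one number came from one animal. They also do not say that replicates of a tissue were separate animals, so the p-values below measure only the spread between these samples.

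B cells first make IgM and IgD and can replace the constant region by class switching, while the rearranged V, D and J segments stay the same. IgG2 is a switched class of the mouse that binds activating Fc receptors and complement, and it is the main IgG of many antibacterial and antiviral responses. In germinal centres the V region gains point mutations by somatic hypermutation, and cells that descend from one rearrangement form a lineage of related sequences. The heavy-chain locus Igh lies on chromosome 12 in RefSeq's GRCm38.p6 annotation, at chr12:113258768-116009954. The call IGHG2 does not separate the subclasses, and that annotation holds the constant regions Ighg2b at chr12:113304314-113307933 and Ighg2c at chr12:113287389-113288932.

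The junctions of the largest IgG2 clonotype in each replicate are printed because these single clonotypes held from 2.81% to 55.4% of a replicate's IgG2 copies. Sequences run 5′ to 3′, and capitals mark the CDR3 between the conserved cysteine codon and the conserved tryptophan codon.
Spleen 1, IGHV1-26 with IGHJ3: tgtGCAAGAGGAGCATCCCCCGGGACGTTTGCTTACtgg
Spleen 2, IGHV1-76 with IGHJ2: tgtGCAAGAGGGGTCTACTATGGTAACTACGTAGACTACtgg
Spleen 3, IGHV1-72 with IGHJ3: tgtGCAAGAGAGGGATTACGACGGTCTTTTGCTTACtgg
Spleen 4, IGHV1-85 with IGHJ2: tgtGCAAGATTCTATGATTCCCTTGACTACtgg
Lymph node 1, IGHV1-26 with IGHJ3: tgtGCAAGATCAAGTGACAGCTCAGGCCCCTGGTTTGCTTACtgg
Lymph node 2, IGHV1-22 with IGHJ1: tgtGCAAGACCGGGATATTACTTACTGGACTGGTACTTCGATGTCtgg
Lymph node 3, IGHV9-1 with IGHJ4: tgtGTAACCCCTCTACGGGACTACtgg
Lymph node 4, IGHV9-3 with IGHJ2: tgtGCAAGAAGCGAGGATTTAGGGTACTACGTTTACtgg
All 8 junctions differed, and 6 of the 8 V genes were of the IGHV1 family. In 7 of the 8 the most-copied sequence had 0 V mismatches, and in lymph node replicate 2 it had 4. The clonotype of lymph node 4 was found in 1 technical library, and the other 7 in both. Next in size among clonotypes of both libraries were IGHV1-75 with 740 copies in spleen 1, IGHV1-76 with 2137 in spleen 2, IGHV1-9 with 1448 in spleen 3 and IGHV1-7 with 616 in spleen 4. Those of spleen 1 and 2 lay mostly in technical library 2, with 5 against 735 and 44 against 2093 copies. In lymph node these were IGHV1-26 with 247 copies in replicate 1, IGHV1-72 with 1219 in replicate 2 and IGHV2-3 with 1158 in replicate 3. The largest clonotypes of lymph node 4 in both libraries were IGHV1-9 with 843 copies and IGHV1-39 with 611.

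IgG2 made up 8.84%, 8.23%, 3.01% and 3.23% of all copies in spleen replicates 1 to 4 and 5.32%, 14.1%, 10.8% and 10.9% in lymph node replicates 1 to 4. The ranges overlapped, and the means of 5.83% ± 3.14 and 10.3% ± 3.63 (SD, n = 4) did not pass an exact two-sided permutation test (p = 0.143). In bulk RNA, fewer IgG2 cells and less IgG2 RNA per cell cannot be told apart. IgG2 copies numbered 14338, 112144, 13745 and 22423 in spleen and 4956, 32062, 13271 and 23719 in lymph node. Distinct clonotypes, the 10 largest, V and J use, CDR3 and V mutation were therefore compared between tissues for 4956 copies per replicate. The largest single clonotype, the effective number, single-copy clonotypes, lineages and mutation by clone size were taken at full depth.

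Technical libraries of one replicate did not always hold the same large clonotypes. Of the IgG2 copies, 67.4%, 73.6%, 79.9% and 76.6% in spleen and 83.7%, 89.3%, 89.4% and 31.6% in lymph node belonged to clonotypes found in both technical libraries. Lymph node replicate 4 stood apart. Its IGHV9-3 clonotype had 10232 copies in technical library 1 and 0 in library 2, and an IGHV3-6 clonotype had 0 copies in library 1 and 2590 in library 2. The largest clonotype of spleen replicate 1 had 4718 copies in library 1 and 15 in library 2. Among clonotypes of 100 or more copies, 172 of 248 in spleen and 78 of 96 in lymph node were within 2-fold between libraries, while 26 and 5 were found in 1 library only. Whether such clonotypes were few cells sampled by 1 library or amplified in 1 library was not tested.

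**Figure D1:**
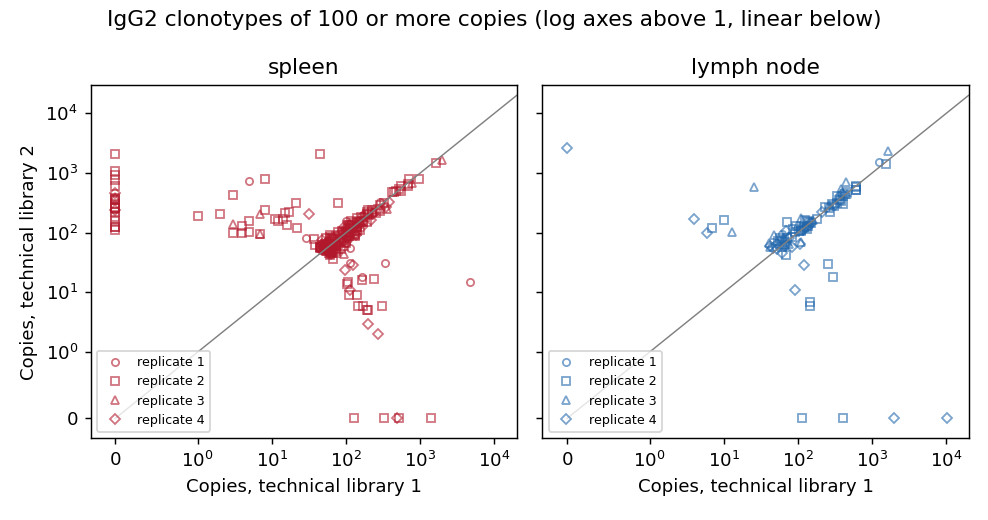
Copies of each IgG2 clonotype of 100 or more copies in technical library 1 (horizontal) and technical library 2 (vertical), with spleen left and lymph node right and 1 symbol per replicate. Axes are logarithmic above 1 copy and linear below; the line marks equal copies, and points on an axis at 0 were found in 1 library, among them the 10232-copy clonotype of lymph node replicate 4.

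At equal IgG2 copies the mean number of distinct clonotypes was higher in spleen, but the ranges overlapped and the test did not pass. Drawing 4956 IgG2 copies gave an expected 504, 1869.9, 983 and 1303 distinct clonotypes in spleen replicates 1 to 4. The same draw gave 394, 722, 503 and 412 in lymph node. Spleen replicate 1 fell among the lymph node values, and the other 3 spleen replicates lay above all of them. Within a replicate number spleen was higher than lymph node in 4 of 4. The means were 1165 ± 573 and 508 ± 150 (SD, n = 4; exact two-sided permutation test, p = 0.0571, adjusted p = 0.114 over 2 measures of clone size). The difference of 657 clonotypes ranged from 422 to 877 when 1 replicate was left out.

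The 10 largest clonotypes held 55.1%, 15.3%, 51.3% and 19.2% of the drawn copies in spleen and 74.9%, 37.0%, 69.3% and 74.8% in lymph node. Spleen split into 2 replicates above 50% and 2 below 20%, and 3 of 4 lymph node replicates lay above every spleen replicate. Within a number the share was lower in spleen in 4 of 4. The means were 35.2% ± 20.9 and 64.0% ± 18.2 (exact permutation test, p = 0.114, adjusted p = 0.114). With clonotypes found in both technical libraries alone, the spleen minus lymph node difference moved from -28.8 to -17.7 percentage points (46.2% ± 30.6 against 63.9% ± 23.3).

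A single clonotype held 33.0%, 2.81%, 26.5% and 3.12% of the IgG2 copies in spleen and 55.4%, 9.34%, 30.3% and 43.1% in lymph node. Those of spleen 1 and lymph node 4 were the clonotypes with 4718 against 15 and 10232 against 0 copies in the technical libraries. The effective number of clonotypes, which is the inverse of the summed squared shares of copies and falls as few clonotypes dominate, was 8.51, 253, 11.6 and 152 in spleen and 3.20, 44.5, 8.69 and 4.798 in lymph node. Neither measure passed an exact permutation test (adjusted p = 0.3 for both, over 3 added measures). At the other end of the range, single-copy clonotypes made up 68.0% ± 5.16 of spleen and 63.9% ± 7.85 of lymph node clonotypes (adjusted p = 0.429, exact permutation test). These 3 measures were taken at full depth, and spleen replicate 2, with the most copies, had the highest single-copy share, 75.5%.

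**Figure D2:**
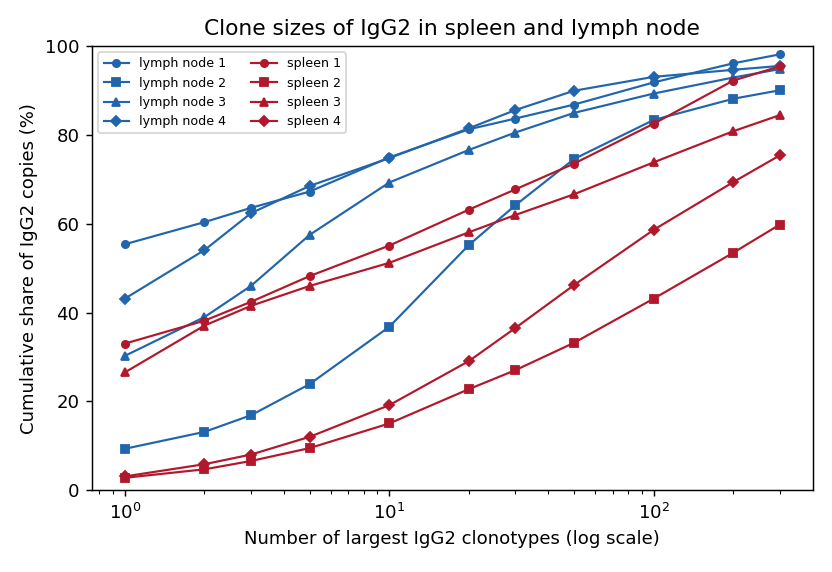
Cumulative share of IgG2 copies (vertical, %) held by the largest clonotypes, against their number (horizontal, log scale), at the full depth of each replicate. Lines are single replicates, spleen red and lymph node blue; the curves of spleen replicates 2 and 4 start at 2.81% and 3.12%, and lymph node replicate 1 starts at 55.4%.

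Related clonotypes were then grouped into lineages, defined by 1 V gene, 1 J gene and 1 CDR3 length, with CDR3s linked at 85% or more identical nucleotides. A lineage held on average 1.54, 1.67, 1.35 and 1.52 clonotypes in spleen and 1.46, 1.65, 2.20 and 1.56 in lymph node, and the difference did not pass an exact permutation test (adjusted p = 0.343). Most lineages were a single clonotype, from 75.6% to 83.0% of them in spleen and from 81.1% to 85.2% in lymph node. Lineages of 10 or more clonotypes held 4.10%, 20.5%, 4.58% and 10.95% of the clonotypes in spleen and 9.64%, 21.2%, 40.5% and 15.9% in lymph node. The tissues overlapped, and the means of 10.0% ± 7.66 and 21.8% ± 13.3 did not pass (adjusted p = 0.343, exact permutation test). Depth differed between replicates here, and the replicate with the most copies, spleen 2, also had the highest spleen value.

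The lineage with the most clonotypes in lymph node was found in replicate 3. It used IGHV1-18, a V segment at chr12:114682632-114682925, with IGHJ2, and held 239 of 914 IgG2 clonotypes (26.1%, exact Clopper-Pearson 95% interval 23.3 to 29.1%) and 3931 copies (29.6% of IgG2). Its members carried a mean of 3.97% V mutation per clonotype, and 5 of the 239 were unmutated in their most-copied sequence. Its 6 most-copied junctions are printed to show the differences within the group. Whether all its members descend from 1 rearrangement was not tested. Capitals mark bases that differ from the most-copied junction, and positions count from 1 at the first base printed. G21A and A35C occurred together and each without the other. The junction with 617 copies had 26 in technical library 1 and 591 in library 2.
Lymph node 3, 906 copies: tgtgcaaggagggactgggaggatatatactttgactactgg
Lymph node 3, 617 copies, G19C, G21A and A35C: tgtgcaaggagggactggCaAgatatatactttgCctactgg
Lymph node 3, 548 copies, G22A and A27T: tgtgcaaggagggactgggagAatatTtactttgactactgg
Lymph node 3, 287 copies, G4T and G21C: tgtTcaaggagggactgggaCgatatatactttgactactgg
Lymph node 3, 179 copies, G21A: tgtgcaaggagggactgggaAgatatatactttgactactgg
Lymph node 3, 140 copies, A25G and A35C: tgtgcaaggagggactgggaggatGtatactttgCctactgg
The V segments of a lightly and a heavily mutated member follow, beside the germline inferred from sequences that the authors' table lists with 0 mismatches to allele IGHV1-18*01. Each starts at the first CDR2 codon.
IGHV1-18*01, inferred germline: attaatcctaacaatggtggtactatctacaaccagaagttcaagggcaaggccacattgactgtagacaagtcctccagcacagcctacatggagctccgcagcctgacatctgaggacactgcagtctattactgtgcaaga
Member with 242 copies, G20A: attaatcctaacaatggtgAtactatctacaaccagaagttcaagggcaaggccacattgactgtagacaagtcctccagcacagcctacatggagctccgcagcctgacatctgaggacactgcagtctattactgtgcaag
Member with 8 copies and 11 changes: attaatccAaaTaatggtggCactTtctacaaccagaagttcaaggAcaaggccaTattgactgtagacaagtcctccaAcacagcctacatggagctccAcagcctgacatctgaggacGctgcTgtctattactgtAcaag
The changes of the second member were T9A, C12T, T21C, A25T, G47A, C56T, G80A, G101A, A121G, A126T and G139A, and it did not carry the G20A of the first.

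In spleen the lineage with the most clonotypes was found in replicate 2, with IGHV1-26 (chr12:114788372-114788665) and IGHJ3. It held 250 of 17872 clonotypes (1.40%, exact interval 1.23 to 1.58%) and 2466 copies, with a mean V mutation of 3.08% and 8 unmutated members. Its 4 most-copied junctions follow, with capitals again for differences from the first. The next, with 62 copies, differed from the first by G8C, C12A and T21C and is not printed.
Spleen 2, 1053 copies: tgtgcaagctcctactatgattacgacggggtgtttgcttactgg
Spleen 2, 443 copies, G8C: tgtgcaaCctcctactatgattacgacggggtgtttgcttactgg
Spleen 2, 124 copies, T34C: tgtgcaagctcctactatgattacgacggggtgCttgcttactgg
Spleen 2, 103 copies, G8C and T34C: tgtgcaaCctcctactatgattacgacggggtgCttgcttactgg
The largest lineages of the other 6 replicates held from 14 to 62 clonotypes. The one of lymph node replicate 2, with IGHV1-22 and IGHJ1, had 62 clonotypes, 3419 copies, 4.07% mean mutation and no unmutated member. The largest lineages of spleen replicate 3 and lymph node replicate 4 had 3667 and 2639 copies, with mean mutation of 0.00512% and 0.0138% per copy. Of the 2639 copies, 2590 were the IGHV3-6 clonotype found in technical library 2 alone.

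V gene use was compared on the expected number of clonotypes per V gene at equal copies. None of the 17 V genes that passed the filter on low counts was called different (0%; edgeR's quasi-likelihood test, Benjamini-Hochberg adjusted p under 0.05). Unadjusted p was under 0.05 for 3 genes. DESeq2 also called 0 of 103 genes, with 7 at unadjusted p under 0.05. The median log2 of spleen over lymph node was -0.14 over the 17 genes, and 14 of the 17 were of the IGHV1 family.

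IGHV1-18 had the smallest p. It took 4.43%, 2.29%, 1.73% and 1.90% of spleen clonotypes and 2.54%, 3.24%, 31.3% and 8.30% of lymph node clonotypes. The highest value belonged to replicate 3 with its IGHV1-18 lineage, and lymph node replicates 1 and 2 lay inside the spleen range. The log2 of spleen over lymph node was -2.77 (SE 0.925, edgeR adjusted p = 0.135), -0.998 without lymph node replicate 3 and -0.76 with lineages counted in place of clonotypes. With no filter on low counts and with technical library 2 alone, IGHV1-18 was the 1 gene called (edgeR adjusted p = 0.00888 and 0.00846), again lower in spleen.

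IGHV1-53 and IGHV1-55 were the only tested genes whose tissues did not overlap, 2 of 17 or 11.8%. IGHV1-53 took 3.66%, 4.202%, 3.47% and 4.67% of spleen clonotypes and 2.79%, 2.39%, 1.14% and 1.86% of lymph node clonotypes. Its log2 of spleen over lymph node was 0.71 (SE 0.251, edgeR adjusted p = 0.135). IGHV1-55 took 8.20%, 4.96%, 5.48% and 6.02% in spleen against 4.31%, 3.54%, 1.93% and 3.11% in lymph node, with a log2 of 0.62 (SE 0.234, edgeR adjusted p = 0.135). All spleen replicates were higher than all lymph node replicates for both, yet neither passed the adjusted test.

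The V gene with the highest mean share over all 8 replicates was IGHV1-26, with 8.77% ± 3.11 of spleen and 7.33% ± 2.16 of lymph node clonotypes (SD, n = 4). IGHV1-82 had 4.86% ± 1.12 and 3.76% ± 1.24, and IGHV1-80 had 3.61% ± 0.514 and 4.64% ± 3.07. IGHV1-72 had 5.04% ± 2.37 and 2.28% ± 0.796, IGHV1-64 had 3.54% ± 0.986 and 2.67% ± 1.33, and IGHV1-19 had 2.15% ± 1.01 and 3.31% ± 0.744. The tissues overlapped for all 6 of these genes, and their edgeR adjusted p was at least 0.287.

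V genes associated with B-1 cells, a self-renewing B cell type of the body cavities that often recognises phosphatidylcholine, were counted among the IgG2 clonotypes as a list. IGHV11-1, IGHV11-2 and IGHV12-3 had 8, 11 and 295 clonotypes in spleen and 1, 10 and 16 in lymph node. At equal copies IGHV12-3 took 0%, 2.21%, 1.68% and 0.0405% of spleen clonotypes and 0%, 0.561%, 0% and 0.270% of lymph node clonotypes. IGHV11-1 averaged 0.0419% ± 0.0822 and 0.00535% ± 0.0107, and IGHV11-2 0.101% ± 0.124 and 0.157% ± 0.262. The tissues overlapped for all 3 genes. The IGHV14 genes IGHV14-1 to IGHV14-4 had 81, 151, 351 and 302 clonotypes in spleen and 11, 44, 49 and 73 in lymph node, of 24330 and 5302 in all. Their mean shares at equal copies were 0.593%, 1.05%, 1.98% and 1.19% in spleen and 0.268%, 0.878%, 1.09% and 0.99995% in lymph node. IGHV14-3 was free of overlap, with the lowest spleen value at 1.286% and the highest lymph node value at 1.269%. None of these 7 genes passed the filter for the test. Of all 129 V genes, the others free of overlap were IGHV9-4 and IGHV9-2, neither tested, and the 2 tested genes named above. Random splits of 4 against 4 replicates are free of overlap at a rate of 0.0286 per gene, the smallest exact permutation p. Some of 129 genes would thus be free of overlap by chance, and these genes are not read as tissue differences. IGHV9-4 was higher in spleen, with 0.535% to 1.70% of clonotypes against 0% to 0.254% in lymph node. IGHV9-2 was lower in spleen, with 0% to 0.175% against 0.192% to 1.05%.

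At the level of families, IGHV1 made up 71.5% ± 7.14 of IgG2 clonotypes in spleen and 70.5% ± 7.603 in lymph node. None of the 9 families with at least 1% of clonotypes was called (0%; exact permutation test, lowest adjusted p = 0.918; 0 at unadjusted p under 0.05), and none was free of overlap (0%). The IGHV14 family had 4.81% ± 1.34 against 3.23% ± 1.17, and IGHV8 had 3.41% ± 1.80 against 4.93% ± 3.28. IGHV5 had 5.53% ± 1.90 against 5.18% ± 1.37, IGHV9 4.25% ± 1.06 against 4.04% ± 0.805, and IGHV2 3.68% ± 2.27 against 3.63% ± 0.587. IGHV3 had 2.78% ± 0.949 against 3.74% ± 2.15, IGHV6 1.18% ± 0.753 against 1.90% ± 0.703, and IGHV10 1.07% ± 0.991 against 1.81% ± 1.21.

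The 4 J genes, which supply the end of the CDR3 and the last framework, had overlapping shares in the tissues. None was called (0%; exact permutation test, lowest adjusted p = 0.343; 0 at unadjusted p under 0.05), and none was free of overlap (0%). IGHJ1 made up 14.8% ± 4.17 of the spleen clonotypes and 18.8% ± 2.30 of those in lymph node. IGHJ2 took 25.9%, 25.4%, 34.2% and 32.7% in spleen and 24.9%, 35.1%, 53.2% and 33.2% in lymph node, where the highest value was again replicate 3. The spleen minus lymph node difference in IGHJ2 was -7.06 percentage points, and -1.515 without that replicate. IGHJ3 took 36.2%, 23.7%, 26.5% and 22.2% in spleen and 29.2%, 20.4%, 12.2% and 15.5% in lymph node, with spleen higher within 4 of 4 numbers. IGHJ4 took 28.4% ± 2.75 and 25.3% ± 6.66.

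**Figure D3:**
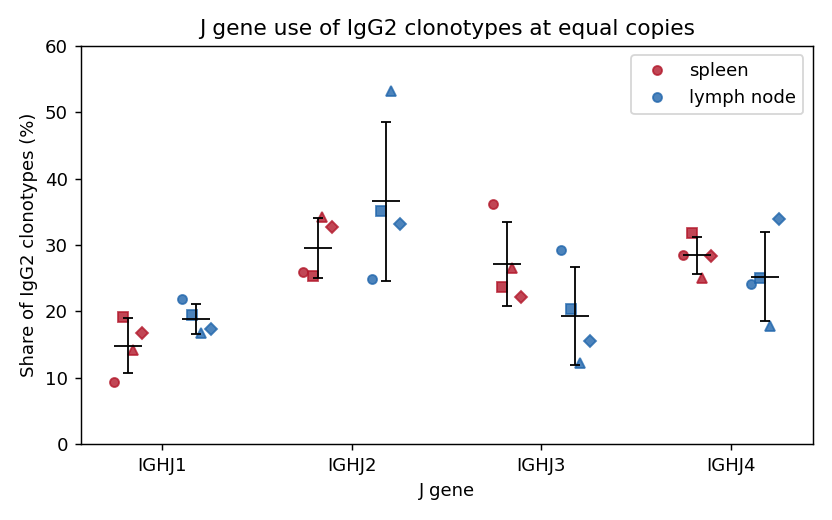
Share of IgG2 clonotypes (vertical, %) by J gene (horizontal) at 4956 copies, spleen red and lymph node blue. Symbols are replicates (circle 1, square 2, triangle 3, diamond 4) and black bars give the mean and SD of 4 replicates; the IGHJ2 value of lymph node replicate 3 stands at 53.2%.

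The CDR3, the part of the heavy chain that varies most, had the same mean length of 12.3 amino acids in both tissues, with SDs of 0.112 in spleen and 0.389 in lymph node. Single replicates lay between 12.2 and 12.5 in spleen and between 12.0 and 12.8 in lymph node. The mean net charge was -0.352 ± 0.123 in spleen and -0.339 ± 0.253 in lymph node. Tyrosine, a frequent contact residue of antibodies, made up 20.3% ± 0.680 and 19.5% ± 1.36 of CDR3 residues. None of the 3 measures passed (exact permutation test, adjusted p = 0.943 for each).

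V mutation was the mismatched share of the aligned V segment, of which a median of 144 nucleotides from CDR2 onward was read. The mean per clonotype at equal copies was 1.41%, 1.55%, 1.67% and 1.66% in spleen and 1.204%, 1.95%, 2.35% and 1.54% in lymph node. Spleen replicates lay close together, and lymph node replicates lay on both sides of them. The means of 1.57% ± 0.123 and 1.76% ± 0.497 did not pass an exact permutation test (p = 0.543, adjusted p = 0.543). Without lymph node replicate 3 the spleen minus lymph node difference moved from -0.19 to 0.00607 percentage points, and with lineages it was 0.118 (1.58% ± 0.124 against 1.46% ± 0.191).

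Clonotypes were classed by the V mismatches of their most-copied sequence, while mean mutation used all their sequences. Clonotypes without a V mismatch made up 46.9%, 46.6%, 42.7% and 39.7% of spleen and 43.1%, 34.3%, 26.7% and 40.9% of lymph node clonotypes. The means were 44.0% ± 3.42 and 36.3% ± 7.37 (exact permutation test, p = 0.143, adjusted p = 0.286). The difference of 7.70 percentage points became 4.52 without lymph node replicate 3, 2.97 at full depth, 1.28 with lineages and 1.33 with copies as weights. Clonotypes with 1 or 2 mismatches made up 25.6% ± 1.73 and 28.4% ± 5.56, those with 3 to 7 made up 23.98% ± 1.42 and 28.0% ± 9.64, and those with 8 or more made up 6.49% ± 1.05 and 7.31% ± 3.05. None of these 3 classes passed (exact permutation test, adjusted p from 0.643 to 0.657).

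Large clonotypes were less mutated than single-copy clonotypes in all 8 replicates, a direction given here without a test. Single-copy clonotypes carried a mean of 1.85%, 2.02%, 2.16% and 2.15% in spleen, and clonotypes of 10 or more copies 0.846%, 1.09%, 0.724% and 1.12%. In lymph node the single-copy means were 1.497%, 2.34%, 2.53% and 1.73%, and the means at 10 or more copies were 0.473%, 1.53%, 2.21% and 1.34%. The drop was -1.10 ± 0.225 percentage points in spleen and -0.640 ± 0.335 in lymph node, and the difference between tissues did not pass (exact permutation test, p = 0.0857). Among the 10 largest clonotypes, 9, 5, 10 and 6 were unmutated in spleen and 10, 5, 4 and 8 in lymph node. In IgM clonotypes of the same replicates, the difference was below 0 in 7 of 8 and ran from -0.9999 to 0.0281 percentage points. A clonotype of 1 copy has its mutation read from 1 sequence, and the part of read errors in this difference was not tested.

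**Figure D4:**
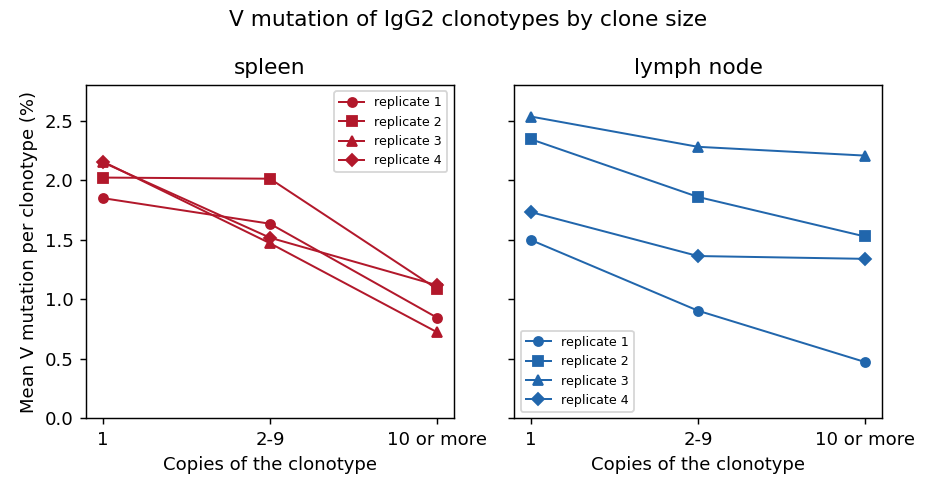
Mean V mutation per IgG2 clonotype (vertical, %) by number of copies (horizontal: 1, 2 to 9, 10 or more), spleen left and lymph node right, with 1 line per replicate at full depth. All 8 lines end lower than they start, and lymph node replicate 3 falls least, from 2.53% to 2.21%.

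The pattern of V mismatches was compared in clonotypes whose allele had an inferred germline. Clonotypes with a listed mismatch that did not match their sequence or did not differ from that germline were left out. At least 96.9% of clonotypes in every replicate remained. Hypermutation by the enzyme AID favours the C of AGC motifs and the G of GCT, the same motif on the other strand. Error-prone repair adds changes at A and T. Replacement changes, counted over all clonotypes, made up 70.01% ± 1.22 of mismatches in spleen and 69.5% ± 0.923 in lymph node. Transitions made up 59.5% ± 0.939 and 59.4% ± 2.23, and A or T bases were hit in 49.8% ± 1.57 and 49.1% ± 4.45 of mismatches. In the inferred germline, A and T made up from 52.5% (spleen 1) to 53.7% (lymph node 4) of the bases. The rate at the C of AGC and the G of GCT was 2.10 ± 0.465 times that at other G and C in spleen. In lymph node it was 2.12 ± 0.428 times, and the ratio was above 1 in all 8 replicates. The first 24 nucleotides, from the start of CDR2, carried 1.14 ± 0.0561 and 1.03 ± 0.204 times the rate of the rest. None of these 5 measures passed an exact permutation test between the tissues (adjusted p = 0.971 for each).

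IgG2 was set beside IgM, the unswitched class, and IgA, the class of mucosal secretions, in the same replicates. In spleen the mean mutation per clonotype was 1.57% ± 0.123 for IgG2, 0.563% ± 0.103 for IgM and 3.15% ± 0.116 for IgA. In lymph node it was 1.76% ± 0.497, 0.462% ± 0.0514 and 2.31% ± 0.233. All 4 IgG2 replicates lay above all IgM replicates in both tissues. IgG2 lay below IgA in every pair of same-numbered replicates. The lowest adjusted p that occurred over 16 such comparisons was 0.0571 (exact permutation test), so none passed. It came from an unadjusted p of 0.0286 (same test), the smallest possible, so groups free of overlap could not score lower. The test treated the isotypes as independent groups, although they came from the same replicates. IgG2 exceeded IgM by 1.01 ± 0.221 percentage points in spleen and 1.30 ± 0.511 in lymph node, and the difference between tissues did not pass (exact permutation test, p = 0.371). That difference was -0.291 percentage points, -0.0939 without lymph node replicate 3 and -0.112 at full depth.

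Replicates of IgG2 and IgM were also free of overlap in IGHJ3 in both tissues, short of the threshold. IGHJ3 took 27.2% ± 6.30 of IgG2 and 11.6% ± 1.33 of IgM clonotypes in spleen, and 19.3% ± 7.39 and 7.70% ± 0.368 in lymph node. IgG2 was higher in 4 of 4 replicates of each tissue, with adjusted p = 0.0571 (exact permutation test) in both. IgA in spleen had 30.9% ± 4.55 IGHJ3. IGHJ4 took 25.3% ± 6.66 of IgG2 against 38.5% ± 1.44 of IgM clonotypes in lymph node (exact permutation test, adjusted p = 0.0571) and 28.4% ± 2.75 against 32.1% ± 1.45 in spleen (adjusted p = 0.137). Mean CDR3 length in spleen was 12.3 ± 0.112 amino acids for IgG2, above 11.9 ± 0.137 for IgM and 11.8 ± 0.169 for IgA in 4 of 4 replicates (exact permutation test, adjusted p = 0.0571 for each). In lymph node it was 12.3 for both IgG2 and IgM (exact permutation test, adjusted p = 0.943). The isotypes were drawn at different copy numbers, 4956 for IgG2, 65472 for IgM and 1134 for IgA.

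Some IgG2 clonotypes were also found with another isotype in the same replicate. Replicates were thinned to the same total of 93191 copies for this comparison. IgA was found on 3.18%, 8.75%, 5.93% and 4.63% of spleen IgG2 clonotypes and on 0.254%, 0.388%, 0.677% and 0.139% of lymph node IgG2 clonotypes. IgG3 was found on 1.56%, 1.53%, 1.67% and 1.80% in spleen and 0.761%, 0.965%, 0.890% and 0.437% in lymph node. These 2 of 5 isotypes, 40%, were free of overlap between tissues, but none of the 5 was called (0%; exact permutation test, p = 0.0286 and adjusted p = 0.0714 for both, 0.0286 being the smallest p possible). IgA itself made up 31.3% ± 2.83 of all copies in spleen and 2.34% ± 1.98 in lymph node, and IgG3 0.462% ± 0.217 and 0.187% ± 0.129.

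Each isotype was then thinned to its own lowest number of copies in any replicate, 1134 for IgA and 69 for IgG3. The IgA overlap was 1.64% ± 0.429 in spleen and 0.340% ± 0.226 in lymph node. Every spleen replicate still lay above every lymph node replicate (exact permutation test, p = 0.0286, adjusted p = 0.143), and the difference was 1.30 in place of 5.26 percentage points. The IgG3 overlap was then 0.479% ± 0.244 and 0.538% ± 0.353, with the direction turned (exact permutation test, p = 0.743). IgM was found on 6.91% ± 1.98 of spleen and 6.17% ± 0.721 of lymph node IgG2 clonotypes, IgG1 on 1.57% ± 0.995 and 1.41% ± 0.376, and IgD on 0.404% ± 0.635 and 1.12% ± 0.471, all with overlapping tissues at the thinning to equal totals.

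Spleen and lymph node of one replicate number shared on average more IgG2 clonotypes than those of different numbers. At 4956 copies each, the shared clonotypes were 2.32%, 4.02%, 1.96% and 2.45% of the mean number of clonotypes for numbers 1 to 4. Over the 12 combinations of different numbers the highest value was 0.972%, for spleen 2 with lymph node 1, and each spleen replicate shared most with the lymph node replicate of its own number. As a share of its own clonotypes, however, lymph node 1 shared 2.79% with spleen 2 and 2.65% with spleen 1. The means were 2.69% for same numbers and 0.142% for different numbers (exact one-sided permutation over 24 pairings, p = 0.0417, the smallest p possible). With clonotypes found in both technical libraries alone the means were 3.71% and 0.0241% (same test, exact p = 0.0417).

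**Figure D5:**
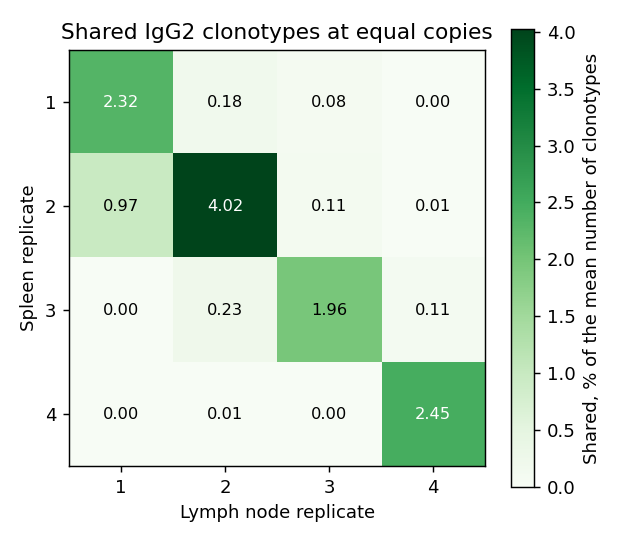
IgG2 clonotypes shared by each spleen replicate (rows) and each lymph node replicate (columns) at 4956 copies, as % of the mean number of clonotypes of both. Values on the diagonal, from 1.96 to 4.02, belong to the same replicate number, and the highest value off the diagonal is 0.97.

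At full depth, same-numbered tissues shared 14, 241, 22 and 52 clonotypes. These were 1.51%, 1.35%, 1.13% and 1.45% of the spleen clonotypes and 3.55%, 8.98%, 2.41% and 3.97% of the lymph node clonotypes. They held 3.08%, 18.0%, 2.86% and 9.91% of spleen IgG2 copies and 5.04%, 31.8%, 22.6% and 3.92% of lymph node IgG2 copies. At least 10 copies in both tissues were reached by 2, 29, 2 and 6 of them. Among different numbers, spleen 2 and lymph node 1 shared 16 clonotypes, 1 of them with at least 10 copies in both, while lymph nodes 1 and 2 shared 27 and lymph nodes 2 and 3 shared 36. Whether low counts in a second library came from cells of that sample or from other libraries was not tested.

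Shared clonotypes were less mutated than the rest of their tissue in all 4 numbers. In spleen the shared clonotypes had a mean V mutation of 1.02%, 1.64%, 1.05% and 1.36%, against 1.62%, 1.96%, 1.87% and 1.91% for those found in spleen alone. In lymph node the shared ones had 0.753%, 1.24%, 1.26% and 1.32%, against 1.22%, 2.26%, 2.45% and 1.64%. Their median size was 5, 7, 4 and 10 copies in spleen and 4.5, 2, 9 and 3 in lymph node. The part of clone size in their lower mutation was not tested. Direction is described here without a test.

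The clonotypes with the most copies in their poorer tissue are printed to show what was shared, with capitals for the CDR3.
IGHV1-76 with IGHJ3, spleen 2 and lymph node 2: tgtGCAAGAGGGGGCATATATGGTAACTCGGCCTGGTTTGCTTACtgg
IGHV1-76 with IGHJ3, spleen 2, lymph node 2 and lymph node 1: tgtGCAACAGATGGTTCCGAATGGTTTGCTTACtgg
IGHV1-75 with IGHJ2, spleen 2, lymph node 2 and lymph node 1: tgtGCAAGAACTTCGTTTGACTACtgg
The first had 2137 copies in spleen 2 (44 and 2093 in technical libraries 1 and 2) and 722 in lymph node 2, with 0.0318% and 1.01% V mutation. The IGHV1-76 clonotype with the shorter CDR3 had 642 copies in spleen 2, 248 in lymph node 2 and 8 in lymph node 1, and was mutated alike in both tissues, 2.76% and 2.89%. The IGHV1-75 clonotype had 225 copies in spleen 2, 744 in lymph node 2 and 2 in lymph node 1, and was nearly unmutated at 0.0895% and 0.00465%. An IGHV1-26 clonotype with IGHJ1 had 929 copies in spleen 2 and 199 in lymph node 2, with 2.28% and 1.197% mutation. The fifth, IGHV1-75 with IGHJ2, had 122 copies in spleen 4 and 230 in lymph node 4, with 2.12% in both.

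Skin of the same series held 3, 56, 1 and 0 IgG2 copies in replicates 1 to 4. The 0 copies of skin replicate 4 allow a share of up to 0.0532% of its copies, from a floor of 3 copies. The 56 copies of skin replicate 2 were 0.747% of its copies (exact 95% interval 0.565 to 0.969%) and formed 7 clonotypes, of which 2 were also found in spleen 2 and 0 in lymph node 2. Such limits and intervals cover counting error only.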

How the data were processed

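Heavy-chain RNA of spleen and lymph node (4 replicates each, 2 technical libraries per replicate, 44772 to 683759 copies per library) was analysed. The deposited tables list each distinct sequence with V, J and constant gene, junction and a whole-number count. Per the labels' protocols a 10-nucleotide molecular identifier was added at reverse transcription, and the headers do not say whether the count is of identifiers or reads. The deposited tables also give other values, V mismatches and aligned V length per sequence. Per the submitters' processing notes the build was mm10; aligner and gene caller: not given in the sources used here.

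Copies of both technical libraries were added. Values at equal copies are expectations for a draw of 4956 copies without replacement (share of the 10 largest: mean of 100 draws), with clonotypes weighted by their chance of being drawn. Single values were compared by exact two-sided permutation over 70 splits (smallest p = 0.0286) with Benjamini-Hochberg adjustment within a family of measures. V genes were tested on expected clonotype numbers rounded to whole numbers with edgeR 4.0.16 (TMM, filterByExpr, quasi-likelihood; R 4.3.3), and with DESeq2 1.42.0 as an alternative. On simulated counts for the 17 tested V genes, with 4 changed 8-fold, edgeR recovered 78.8% with 0.1 false calls per run over 20 runs. The simulation used 1 common dispersion. Changes as small as those of IGHV1-53 and IGHV1-55 (log2 of 0.71 and 0.62) were not simulated, so the recovery does not apply to them. Values came from scipy 1.17.1, pandas 2.3.3 and numpy 2.4.6 under Python 3.11.15. Germline V was inferred for 117 alleles from at least 5 sequences with 0 mismatches each, and 99.2% of 75991 listed mismatches matched the sequence at the listed place.

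The main tests did not pair tissues by replicate number, and the labels do not say whether a number marks 1 animal. Correlations of same-numbered deviations in V gene use were -0.057, -0.013, 0.116 and 0.0633, which cannot show that tissues were unpaired. Shared IgG2 clonotypes were more frequent within numbers, 2.69% against 0.142%, so the main tests may leave out a link between same-numbered samples. A replicate block, with tissues swapped within a number, was run as an alternative. Named were all J genes and tested V families, the 8 most used V genes, the 5 of smallest p, the 2 largest clonotypes per replicate found in both technical libraries, the 5 most shared clonotypes and the largest lineage of each tissue. The IGHV9-3 and IGHV3-6 clonotypes of lymph node replicate 4, found in 1 library each, were named after their values were seen. The members and lists were chosen with earlier results of these data known. Alternatives were full depth, 495 copies drawn, no single-copy clonotypes, lineages, copies as weights, single technical libraries, the most-copied sequence, no filter, each replicate left out and a replicate block. Restricting to clonotypes of both libraries, leaving out alleles rarely unmutated in IgM and equal copies of the other isotype were chosen after seeing the data.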

Additional observations from a re-analysis of the deposited data

Results flagged for a closer look

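A value that lay far from the other 3 of its tissue was looked for in 78 groups of 4 replicates, where chance gives about 1 in 20. Spleen replicate 2 held 112144 IgG2 copies. In spleen replicate 1, IgD was found on 1.35% of IgG2 clonotypes, the IGHV5 family took 2.71%, and A or T bases were hit in 52.1% of mismatches. In lymph node replicate 1, 70.9% of mismatches were replacements. Lymph node replicate 2 had the lowest share of its 10 largest clonotypes, 37.0%, and the highest effective number of clonotypes, 44.5. In lymph node replicate 4, 31.6% of copies belonged to clonotypes found in both technical libraries.

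Signal also appeared outside the spleen and lymph node libraries. The positive control, whose nature the labels do not state, held 190431 IgG2 copies, 29.5% of its copies (exact 95% interval 29.4 to 29.6%), in 103635 clonotypes, of which 12 were also found in spleen and 5 in lymph node. Skin replicate 2 held 56 IgG2 copies, against 3, 1 and 0 in the other skin replicates.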

How the results depend on the processing

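Distinct clonotypes, the share of the 10 largest, the unmutated share, IgG2 minus IgM mutation, and the counts of J genes, V families and isotypes kept their direction and their side of the threshold under every alternative run for them. V genes past the threshold were 0, but 1 with no filter and 1 with technical library 2 alone, in both cases IGHV1-18. The excess of same-number over different-number sharing was 2.55 points and ran from 2.21 to 2.74 without 1 number, where 3 numbers allow no p under 0.167. V mutation turned with lineages (0.118) and ran from -0.376 to 0.00607 points without 1 replicate. CDR3 net charge turned without single-copy clonotypes (0.0103), with lineages (0.00188) and with copies as weights (0.133), and ran from -0.103 to 0.0884 without 1 replicate. CDR3 length ran from -0.0740 to 0.205, and tyrosine turned with lineages (-0.100). The replicate block changed no call. For the measures tested by permutation this was fixed in advance, since its 16 swaps allow no p under 0.125 (exact permutation). In the block, distinct clonotypes differed by the same 657.1 with p = 0.125 (exact permutation). V genes, tested there with edgeR, stayed at 0 past the threshold. Within a number, distinct clonotypes were higher and the share of the 10 largest lower in spleen in 4 of 4.

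Among single genes, all uncalled, IGHV1-26 (log2 near 0) turned at full depth (0.00520), without single-copy clonotypes (0.50), in technical library 1 (0.11), with no filter (0.0712) and with DESeq2 (0.10), and ran from -0.29 to 0.20 without 1 replicate. IGHV1-82 turned with lineages (-0.16) and in technical library 1 (-0.15), and IGHV1-80 ran from -1.08 to 0.0738. In percentage points, copies as weights turned IGHJ1 (0.607), IGHJ4 (-6.02), IGHV6 (1.03) and IGHV9 (-16.9), and lineages turned IGHJ4 (-0.413) and IGHV2 (-0.610). Full depth turned IGHV2 (-0.126), IGHV9 (-0.327) and the IgM overlap (-0.0254). Leaving out single-copy clonotypes turned IGHV1 (-0.257), IGHV2 (-0.134) and the IgG1 overlap (-0.0560). Technical library 1 turned IGHV2 (-0.316) and the overlaps with IgM (-0.912) and IgG1 (-0.339), and library 2 that with IgM (-0.139). Clonotypes of both libraries turned IGHV14 (-0.273), IgM (-2.57) and IgG1 (-0.469), and equal copies of the other isotype turned IgG3 (-0.0596). Without 1 replicate, IGHV1 ran from -1.92 to 4.31, IGHV2 from -0.832 to 1.02, IGHV5 from -0.226 to 1.29, IGHV8 from -2.47 to 0.0532, IGHV9 from -0.151 to 0.600, IgM from -0.122 to 1.48 and IgG1 from -0.304 to 0.471. The causes were not tested.

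The smallest replicate's 4956 copies and 394 clonotypes limit every comparison at equal copies, and the exact permutation of 4 against 4 replicates cannot give p under 0.0286.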
